A study of Homo sapiens with 12 samples.

Results

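Cells of the human triple-negative breast cancer line MDA-MB-231 that had been stimulated for 24 h with PMA/Ionomycin were compared with the same cells after 6 h. PMA is a phorbol ester that activates protein kinase C, and Ionomycin is a calcium ionophore. The comparison asks which parts of the 6 h response had decayed by 24 h and which went on building. Gene expression was given as FPKM (fragments per kilobase of transcript, scaled to the mapped fragments of each library). Features, the deposited rows that each name 1 gene or several overlapping genes, were kept when their mean over the 4 wild-type (WT) libraries of 6 h and 24 h was at least 1 FPKM, which left 11224 of 24331 features (46.1%).

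The WT groups were unstimulated cells (0 h), cells stimulated for 6 h and cells stimulated for 24 h, with 2 biological replicates each. The ΔCRE cells set beside them were MDA-MB-231 cells in which CRISPR/Cas9 had removed the NFAT and NF-kB binding sites from the core-regulatory element (CRE) of the ETS1 promoter. They carried 2 replicates at each of the same times, so that the series held 12 libraries. Deleted clones were selected, but how many clones the ΔCRE libraries came from was not stated in the sources used here. Both genotypes shared the cell line and the stimulation, and no vehicle-treated or unstimulated culture kept for 24 h was among the groups.

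The 6 WT libraries resembled each other closely. Their FPKM summed to between 566255 and 637247, and ribosomal protein genes took between 25% and 26.4% of that sum. The correlation of log2(FPKM + 1) between replicates, taken across features, was 0.986 at 0 h, 0.980 at 6 h and 0.984 at 24 h. In ΔCRE cells at 0 h it was 0.871, and replicate 1 of that group stood apart; neither ΔCRE library of 0 h entered the main fits. FPKM holds no read counts, so the depth behind each value is unknown. Markers of the line were present: 11 of 13 passed the level filter, with VIM, CD44, AXL and CAV1 above 48 FPKM in all 6 libraries. TWIST1 was listed at 0 and CDH2 reached at most 0.0656 FPKM. Of 15 markers of luminal and epithelial breast cells 9 also passed it: KRT8 and KRT18 were at least at 277 FPKM in all 6 libraries, KRT19 at 45.6 FPKM and CLDN4 at 16.6 FPKM, while ESR1, PGR and CDH1 stayed at or under 0.0246 FPKM. Of the leukocyte markers 10 of 11 stayed at or under 0.577 FPKM. In such bulk libraries fewer cells of a type and less RNA per cell cannot be told apart.

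Protein kinase C and calcium signalling act through well-studied families of transcription factors. NF-kB is held in the cytoplasm by IkB proteins and is released when these are degraded. AP-1 is a dimer of FOS and JUN proteins, many of which are themselves products of immediate early genes. NFAT enters the nucleus once the phosphatase calcineurin has removed its phosphates. All drive cytokines, chemokines and proteases, and all also switch on their own inhibitors. Slower programs (secretory stress, sterol synthesis, interferon-stimulated genes, cell division) are controlled by other factors.

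The promoters below are shown because they belong to genes on which the results turn and carry the letters these factors are known to read. They come from the RefSeq promoter table for build GRCh38.p14 (the deposited files use hg19), read 5′ to 3′ on the strand of the gene, and each lies within the 250 bases before the transcription start. Capitals mark the motif named in each set, found by letters alone on either strand. The first set are genes that decayed after 6 h, with matches to the NF-kB site.
CXCL1, chr4:73869285-73869354 (+ strand): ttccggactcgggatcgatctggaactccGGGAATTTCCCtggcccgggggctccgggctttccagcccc
CCL20, chr2:227813733-227813802 (+ strand): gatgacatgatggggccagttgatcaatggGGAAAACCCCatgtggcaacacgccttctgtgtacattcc
BIRC3, chr11:102317319-102317388 (+ strand): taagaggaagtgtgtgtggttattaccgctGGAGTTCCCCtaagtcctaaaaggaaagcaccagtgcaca
NFKBIA, chr14:35404791-35404860 (− strand): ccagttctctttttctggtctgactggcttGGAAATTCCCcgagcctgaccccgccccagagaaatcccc
TNFAIP3, chr6:137867174-137867243 (+ strand): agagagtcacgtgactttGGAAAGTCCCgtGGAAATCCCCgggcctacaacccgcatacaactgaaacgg
PTX3, chr3:157436724-157436793 (+ strand): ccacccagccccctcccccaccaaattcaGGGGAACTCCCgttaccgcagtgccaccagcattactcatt
The next set are genes of endoplasmic reticulum folding, with the CCAAT box (CCAAT), part of the element read in secretory stress.
HSPA5, chr9:125241385-125241579 (− strand): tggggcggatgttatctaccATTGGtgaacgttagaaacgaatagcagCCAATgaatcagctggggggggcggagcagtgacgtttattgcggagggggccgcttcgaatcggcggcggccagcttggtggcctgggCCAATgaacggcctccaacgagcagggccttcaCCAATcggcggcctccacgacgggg
HERPUD1, chr16:56932005-56932083 (+ strand): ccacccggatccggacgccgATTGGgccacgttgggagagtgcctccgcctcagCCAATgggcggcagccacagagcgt
The next set are genes of mitosis, with the cell cycle homology region (TTTGAA), through which such genes are repressed outside division.
PLK1, chr16:23678830-23678888 (+ strand): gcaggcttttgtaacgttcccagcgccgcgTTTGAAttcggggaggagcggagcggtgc
CDC20, chr1:43358773-43358951 (+ strand): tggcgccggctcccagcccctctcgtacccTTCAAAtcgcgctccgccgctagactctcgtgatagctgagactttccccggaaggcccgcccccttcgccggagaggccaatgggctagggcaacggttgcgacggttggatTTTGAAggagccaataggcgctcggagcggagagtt
The last set are genes that built up after 6 h. MVK has the sterol response site (TCACCCCA), IFI44, ISG20 and IFIT1 have the interferon response site (GAAANNGAAA), and TNFSF15 has the AP-1 site (TGACTCA).
MVK, chr12:109573569-109573636 (+ strand): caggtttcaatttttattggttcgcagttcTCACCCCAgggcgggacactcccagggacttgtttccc
IFI44, chr1:78649741-78649788 (+ strand): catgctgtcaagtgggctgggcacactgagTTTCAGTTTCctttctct
ISG20, chr15:88638917-88638986 (+ strand): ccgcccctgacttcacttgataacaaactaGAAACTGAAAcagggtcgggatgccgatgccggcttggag
IFIT1, chr10:89392490-89392559 (+ strand): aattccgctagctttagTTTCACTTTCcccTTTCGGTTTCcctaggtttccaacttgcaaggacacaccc
TNFSF15, chr9:114792614-114792680 (− strand): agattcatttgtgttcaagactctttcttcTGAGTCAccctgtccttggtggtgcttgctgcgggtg
Of 11031 tested features that name 1 gene, 8873 (80.4%) had a promoter in the table. The NF-kB site was in 53.3% of the cytokine promoters (8 of 15) and in 27.8% of those of NF-kB subunits and inhibitors (5 of 18), against 8.94% of all tested promoters and 7.75% of all 27305 promoters. Lists that did not mostly fall also held it: MHC class I presentation in 38.5% (5 of 13), integrins in 28.6% (2 of 7) and the TGF-beta superfamily in 22.6% (7 of 31). It was in 10.1% of the promoters of all features that fell and 8.65% of those that rose. For changes of at least 2-fold these shares were 21.3% and 8.76%. The cell cycle homology region was in 47.1% of the mitosis promoters (24 of 51) against 8.06% of tested and 13.6% of all promoters. The CCAAT box was in 83.9% of the folding promoters (26 of 31), 70.6% of the mitosis promoters (36 of 51) and 77.8% of the cholesterol promoters (14 of 18), against 35.4% and 33.0%. The interferon response site was in 60.7% of the promoters of interferon-stimulated genes (17 of 28), against 2.22% and 3.07%. The AP-1 site was in 2.98% of the promoters of features that rose and 2.65% of those that fell, against 2.48% of tested and 4.16% of all promoters. For changes of at least 2-fold these shares were 6.57% (9 of 137) and 7.87% (7 of 89), and no test was run between them. These are matches of letters in a short window, not measured binding. The windows of IL8, CSF2, TRAF1 and ICAM1 held no exact match to the NF-kB site, which says only that these letters are not in these windows.

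Between 6 h and 24 h, 2863 features (25.5% of those tested) fell and 2257 (20.1%) rose at an adjusted p under 0.05 (limma on log2(FPKM + 1), Benjamini-Hochberg adjustment over all 11224 features). Most changes were modest. The median difference over all tested features was −0.04 (log2) and the median standard error was 0.085. Of the called features 1908 fell and 1252 rose by less than 0.5 on the log2 scale. At least 2-fold on this scale, 138 features fell (1.23%) and 184 rose (1.64%). By more than 3 on the log2 scale 15 features fell and 2 rose. Of those 15, 10 name small RNAs that a poly(A) protocol captures poorly and that were listed at 0 in both 24 h libraries; the other 5 were CSF2, PTX3, CCL20, IL8 and BIRC3, and the 2 that rose were MMP1 and PAEP. The share of calls that were higher was 44.1%, and it was 50.5% after quantile normalization and 64.3% on TPM, where the median difference of all tested features moved to 0.07. The counts of gene groups below are given with the TPM count where that moved by more than 1.5 times or turned a direction. At an unadjusted p under 0.05 there were 6027 features. Leaving out 1 WT library of 6 h or 24 h gave between 1383 and 1604 higher and between 1669 and 1976 lower calls. A fit over all 12 libraries, ΔCRE 0 h replicate 1 included, gave 328 and 346, and kept the calls of 97 of 199 called genes that were followed through every setting; without that library the fit gave 2348 and 2986.

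**Figure D1:**
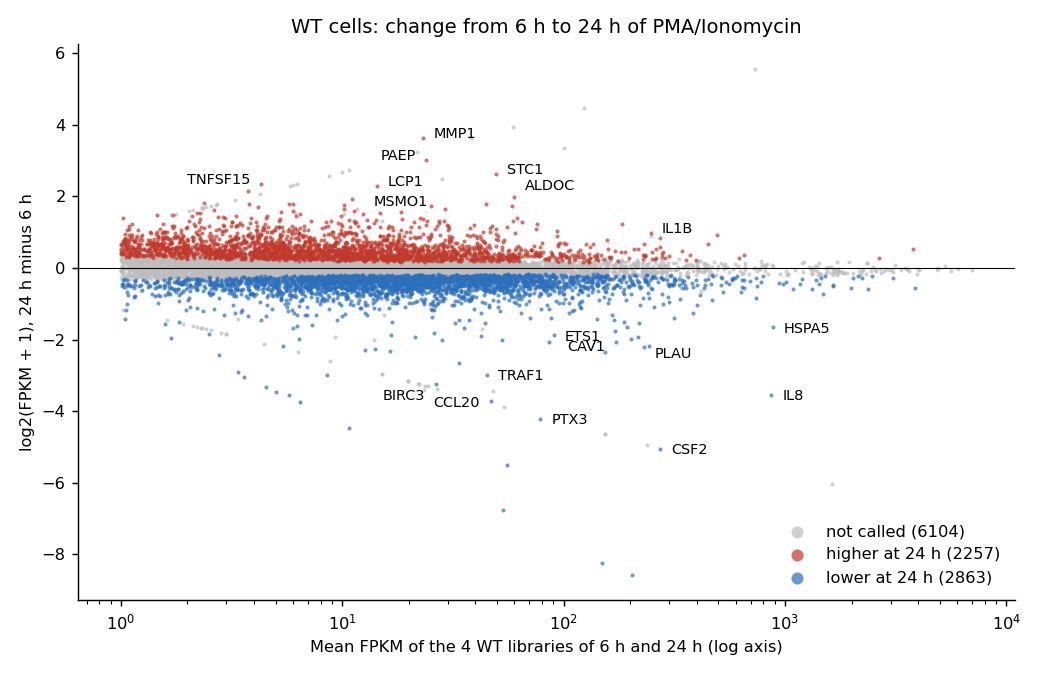
Change between 6 h and 24 h of PMA/Ionomycin in WT cells. Each point is 1 of 11224 tested features, placed by its mean FPKM over the 4 libraries (log axis) and its log2(FPKM + 1) difference, 24 h minus 6 h; red points rose (2257) and blue points fell (2863) at an adjusted p under 0.05. CSF2, PTX3, CCL20 and IL8 lie far below the zero line, MMP1, PAEP and STC1 far above it, and the uncalled gray points at the edges differ between replicates.

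Most steep decreases followed a rise. Of the 125 features that fell at least 2-fold and are no small RNA entries, 106 had a higher mean at 6 h than at 0 h. The 24 h mean was still above the 0 h mean in 48 of them and below it in 77. The 184 features that rose at least 2-fold had another course. Their 6 h mean was below the 0 h mean in 120 and above it in 64, and the 24 h mean was above the 0 h mean in 180. These counts share their 6 h and 24 h libraries with the comparison and describe the course only.

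Cytokines and chemokines, the secreted signals that recruit and instruct other cells, had the lowest median of the lists tested. Of 36 listed genes 21 passed the filter, 14 of them fell and 4 rose, and the median difference was −0.91 (log2) against −0.04 over all tested features. CSF2, which encodes the myeloid growth factor GM-CSF, was at 1.61 and 2.18 FPKM in the 0 h libraries, at 540.2 and 522 FPKM at 6 h, and at 16.1 and 13.9 FPKM at 24 h. It fell by 5.06 on the log2(FPKM + 1) scale (SE 0.11, adjusted p = 9.22e-07), a 35.4-fold lower mean. IL8 (CXCL8), a neutrophil chemokine, went from 1605 and 1594 FPKM at 6 h to 134 and 139 FPKM at 24 h, with 1.76 and 1.49 FPKM at 0 h. Replicates lay close together at each time and no groups overlapped, and the 24 h level of IL8 remained far above that of unstimulated cells. CCL20, a chemokine for lymphocytes and dendritic cells, was listed at 0 in both 0 h libraries, reached 83.3 and 92.6 FPKM at 6 h and stood at 6.12 and 5.38 FPKM at 24 h. PTX3 is a secreted pattern recognition protein outside this list. It was at 11.3 and 10.7 FPKM at 0 h, at 150.4 and 149.8 FPKM at 6 h and at 6.66 and 7.73 FPKM at 24 h, below where it began.

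Most other cytokines of the list also fell. CXCL1 fell by 2.0 (log2) and CXCL2 fell by 1.87, both neutrophil chemokines, and CXCL3 of the same cluster fell by 0.91. CCL2, a monocyte chemokine, fell by 2.65, from 59.2 and 58.5 FPKM to 8.04 and 9.04 FPKM. CSF1, the macrophage growth factor, was 3.16-fold lower and kept 27.9% of its rise between 0 h and 6 h. IL11 was at 415 and 388 FPKM at 6 h and at 90.5 and 84.1 FPKM at 24 h, under its 0 h values of 143 and 141 FPKM, and LIF fell by 1.21 and IL6 by 0.78. LTB, at 5.45 and 5.26 FPKM at 6 h, was at 0.399 FPKM and listed at 0 in the 24 h libraries, a 26.9-fold lower mean. Its difference of −2.43 became −4.61 with a pseudocount of 0.1 and that of CSF3 moved from −0.75 to −1.20.

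A few cytokines went on building, 4 of 21 tested (19.0%), a share near the 20.1% that rose over all tested features. IL1B, the inflammatory cytokine interleukin 1 beta, was at 0.737 and 0.453 FPKM at 0 h, at 167 and 167 FPKM at 6 h and at 326 and 330.5 FPKM at 24 h, a rise of 0.97 (log2, SE 0.087, adjusted p = 0.000262). TNFSF15, a TNF family ligand, had its main rise after 6 h: it stood at 0.768 and 0.712 FPKM at 6 h and at 7.74 and 7.98 FPKM at 24 h, 10.6-fold higher. IL1A rose by 0.66 from under 1 FPKM, a call that was lost with a pseudocount of 0.1 (1.07). IL32 rose by 0.37, and without WT 6 h replicate 2 its difference was 0.21 and no longer called. Over the list, 15 of the 36 genes stayed under the filter, among them TNF, CXCL10 and IL33.

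**Figure D2:**
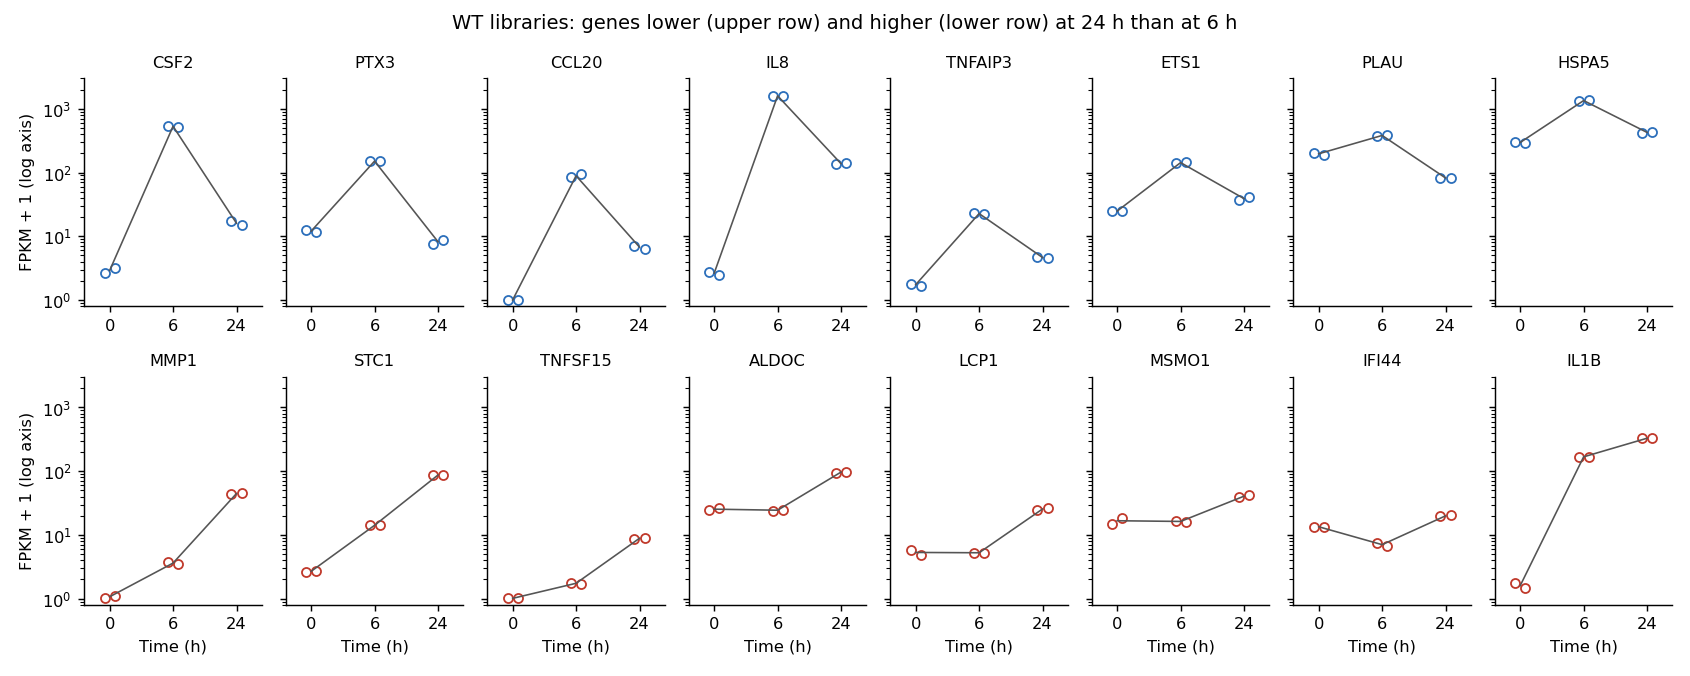
FPKM + 1 of genes that fell (upper row) or rose (lower row) between 6 h and 24 h, in the 6 WT libraries (log axis). Each circle is 1 library, n = 2 at each time, and lines join the mean FPKM of each time plus 1. All 8 genes of the upper row, CSF2 and IL8 among them, peak at 6 h, and all 8 of the lower row, MMP1 and IL1B among them, are highest at 24 h.

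The NF-kB subunits and inhibitors fell nearly as a block. Of 22 tested members (23 listed) 18 fell and 1 rose, with a median difference of −0.78; the medians against 0 h were 1.26 at 6 h and 0.67 at 24 h, so that the group as a whole remained above the unstimulated level. BIRC3, an inhibitor of apoptosis that acts in TNF receptor complexes, went from 46.4 and 51.6 FPKM to 4.20 and 4.46 FPKM, with 0.263 and 0.435 FPKM at 0 h. TRAF1, an adaptor of the same receptors, went from 81.5 and 80.8 FPKM to 9.31 and 9.44 FPKM. TNFAIP3, which encodes the deubiquitinase A20 that switches the pathway off, went from 21.9 and 21.4 FPKM to 3.67 and 3.6 FPKM. Against 0 h the 24 h means were still 12.4-fold higher for BIRC3, 8.96-fold for TRAF1 and 4.94-fold for TNFAIP3. NFKBIA, the IkB alpha inhibitor, fell by 1.42 and kept 27.0% of its 6 h rise, and NFKBIE fell by 1.15. The subunits themselves fell less: NFKB1 fell by 1.03, NFKB2 fell by 0.97, RELB fell by 0.93 and RELA fell by 0.29, the last a call that was lost on TPM and after quantile normalization (−0.18 in each). The kinase subunit IKBKG was the member that rose (0.36); it was not called without WT 6 h replicate 2 (0.34) or WT 24 h replicate 1 (0.29). BCL3, CHUK and IKBKB did not pass the test (−0.45, −0.22 and 0.10).

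ICAM1, the leukocyte adhesion molecule and a textbook target of NF-kB, was at 1.56 and 1.91 FPKM at 0 h, at 259.6 and 256 FPKM at 6 h and at 50.4 and 49.8 FPKM at 24 h. It was 5.15-fold lower at 24 h than at 6 h and kept 18.9% of its rise. Among the 15 named features with the largest decreases were also C15orf48, which fell by 2.32, ICOSLG, a ligand of the T cell costimulator ICOS, which fell by 2.17, and HNRNPA1P33, which fell by 2.26. The last is a processed pseudogene whose reads can be shared with HNRNPA1, so its value is uncertain.

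Transcription factors of the first hours mostly fell as well. Of 11 tested AP-1 factors 9 fell and 1 rose, with a median of −0.41; on TPM 5 fell. FOSL1, which encodes FRA1, was at 104 and 101 FPKM at 0 h, at 468 and 449 FPKM at 6 h and at 181 and 165 FPKM at 24 h. FOSL2 fell by 0.88, MAFF is counted among the AP-1 related factors and fell by 0.78, JUN fell by 0.63 and BATF3 by 0.51. JUNB fell by 0.25, a call that was lost on TPM (−0.13) and after quantile normalization (−0.09). ATF3 fell by 0.41, a value that was −0.25 and not called without WT 6 h replicate 1. JUND rose by 0.55, from 18.0 and 15.7 FPKM to 26.6 and 23.7 FPKM, and FOS was at most 1.86 FPKM in any WT library and did not pass the test (−0.09). The wider list of EGR, NR4A and other immediate early genes had 16 of 27 tested members lower and 4 higher, with a median of −0.38. In it KLF10 fell by 1.12, MYC by 1.0, ID3 by 0.99, ID1 by 0.93 and KLF6 by 0.78. ID1 and ID3, inhibitors of helix-loop-helix factors, were already lower at 6 h than at 0 h and went on falling.

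ETS1 itself, the factor whose promoter the study dissected, belonged to the decaying genes. It stood at 24.0 and 23.7 FPKM at 0 h, at 139 and 145 FPKM at 6 h and at 36.2 and 39.7 FPKM at 24 h. The decrease was 1.88 (log2, SE 0.066, adjusted p = 5.4e-06), the mean was 3.75-fold lower, and 11.9% of the 6 h rise remained. Of 16 tested ETS family members 7 fell and 3 rose (6 on TPM); ETS2 fell by 0.56 and ETV1 rose by 1.04, from 3.54 and 3.22 FPKM to 7.85 and 8.19 FPKM, after 10.4 and 11.5 FPKM at 0 h. Of 14 tested genes of NFAT and calcineurin 6 fell (42.9%) and 3 rose (21.4%), with a median of −0.25. In the ETS family 43.8% fell and 18.8% rose. Over all tested features 25.5% fell and 20.1% rose, so the rising shares of both lists were near that of all features. NFATC2, a calcium-activated factor of this family, fell by 0.45 and RCAN1, a calcineurin inhibitor and NFAT target, fell by 0.82. PRKCA, the protein kinase C alpha that PMA binds, was at 33.7 and 35.3 FPKM at 0 h. It was at 22.3 and 22.8 FPKM at 6 h and at 11 and 11.1 FPKM at 24 h. Of 8 tested protein kinase C and D genes 4 fell (50%) and 2 rose (25%). Of the 25 genes named in the study 12 fell (48%) and 6 rose (24%). Part of them were picked by the study from these samples, so that count is not independent of the data.

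Feedback on MAP kinase leaned downward. Of 21 tested members 10 fell (47.6%) and 5 rose (23.8%), against 25.5% and 20.1% over all tested features. The median was −0.15. DUSP1, a phosphatase of stress kinases, went from 35.2 and 37.2 FPKM to 15.8 and 15.5 FPKM, and SPRY2 fell by 0.54. DUSP6 and DUSP4, phosphatases of ERK, rose by 0.52 and 0.38. DUSP5 stood at 17.2 and 16.9 FPKM at 0 h, 169 and 172 FPKM at 6 h and 141 and 143 FPKM at 24 h. It thus kept 81.4% of its 6 h rise, and its decrease of 0.26 was not called on TPM (−0.15). Among ligands and receptors of the EGF family 5 of 8 tested fell and 2 rose. HBEGF was at 155 and 155 FPKM at 6 h and at 69.6 and 67.4 FPKM at 24 h, while NRG1 and EGFR fell by 0.89 and 0.92.

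**Figure D3:**
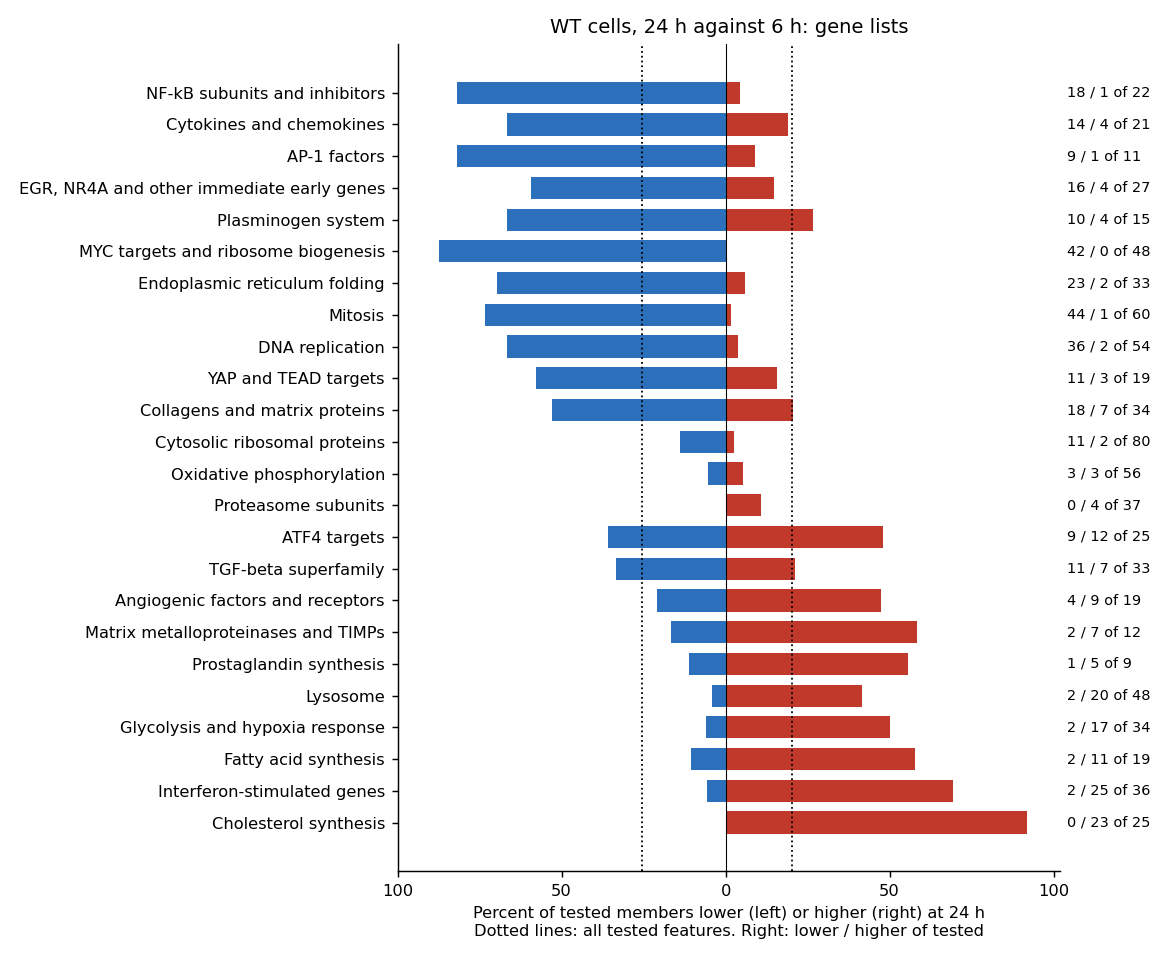
Number of tested members of each gene list that were higher (right) or lower (left) at 24 h than at 6 h in WT cells, as a percentage of the members tested, at an adjusted p under 0.05. The shares over all 11224 tested features were 20.1% higher and 25.5% lower; ribosome biogenesis, NF-kB and mitosis lie far to the left and cholesterol synthesis far to the right.

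Genes of secretory stress mostly fell after 6 h. Of 33 tested genes of endoplasmic reticulum folding 23 fell and 2 rose (4 on TPM), with a median of −0.42; the medians against 0 h were 0.74 at 6 h and 0.43 at 24 h. HSPA5, the chaperone BiP, was at 296 and 295 FPKM at 0 h, at 1314 and 1379 FPKM at 6 h and at 422 and 428 FPKM at 24 h. It fell by 1.66 (SE 0.059, adjusted p = 5.51e-06) and kept 12.3% of its rise. HERPUD1, a component of the degradation machinery for misfolded proteins, fell by 1.04, SDF2L1 by 0.95 and XBP1, a transcription factor of the same response, by 0.51. WFS1 rose by 0.63. Both HSPA5 and HERPUD1 carry several CCAAT boxes in the promoters shown above. Of 21 tested heat shock genes 6 fell (28.6%) and 2 rose (9.52%), against 25.5% and 20.1% over all tested features. On TPM 5 rose, and the median of −0.11 turned to 0.01. HSPA8, the constitutive cytosolic chaperone, fell by 0.50.

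Genes of ribosome biogenesis had the largest share of falling members among the lists tested. Of 48 MYC targets and ribosome biogenesis genes 42 fell and 0 rose at an adjusted p under 0.05 in limma (0 at an unadjusted p under 0.05; 1 rose on TPM and 2 after quantile normalization), with a median of −0.50. The median against 0 h was 0.14 at 6 h and −0.32 at 24 h, so the group ended under the unstimulated level. NOLC1, a chaperone of nucleolar ribonucleoproteins, went from 157 and 158 FPKM to 77.2 and 79.4 FPKM, DKC1, the pseudouridine synthase, from 125 and 127 FPKM to 65.0 and 63.2 FPKM, and NCL, nucleolin, from 938 and 954 FPKM to 525 and 537 FPKM. DDX21, a nucleolar helicase, fell by 0.98. The cytosolic ribosomal proteins changed far less: 11 of 80 tested fell and 2 rose (6 and 6 on TPM), with a median of −0.09 that turned to 0.03 on TPM.

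Genes of mitosis and DNA replication fell from medians that were already below 0 h, for DNA replication −0.15 at 6 h. G1 regulators and p53 targets instead had 6 h medians above 0 h (0.09 and 0.33). In the mitosis list 44 of 60 tested genes fell and 1 rose, with a median of −0.41, and the medians against 0 h were −0.36 at 6 h and −0.72 at 24 h. CCNA2, cyclin A2, was at 31.2 and 33.4 FPKM at 0 h, 21.3 and 24.4 FPKM at 6 h and 12.2 and 12.9 FPKM at 24 h. UBE2C, an enzyme of the anaphase-promoting complex, went from 564 and 515 FPKM to 276 and 253 FPKM, and MKI67, the proliferation marker Ki-67, from 73.0 and 72.3 FPKM to 42.8 and 44.1 FPKM. The decrease was smaller for CCNB1 (0.53), CDC20 (0.55) and PLK1 (0.46). In the DNA replication list 36 of 54 fell and 2 rose (23 fell without WT 6 h replicate 2), with a median of −0.32. RRM2, the small subunit of ribonucleotide reductase, was the member that fell at least 2-fold, from 119 and 119.8 FPKM to 52.9 and 53.1 FPKM. TYMS, thymidylate synthase, fell by 0.80 and MCM7, a subunit of the replicative helicase, by 0.55. Of 15 tested G1 regulators 9 fell and 2 rose, among them CDK6 (−1.27), CCND1 (−0.83), CCNE2 (−0.80) and the inhibitor CDKN1A, which went from 129 and 125 FPKM to 48.4 and 47.5 FPKM after 12.8 and 12 FPKM at 0 h. Activators and an inhibitor of the cycle thus fell together, and 9 of 17 tested p53 targets fell and 0 rose in limma (0 at an unadjusted p under 0.05, 1 on TPM), with PLK2 (−1.46), GADD45A (−1.13) and PMAIP1 (−1.02).

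Genes of the cell surface, the matrix and its proteases moved in both directions. The plasminogen system, which degrades fibrin and matrix, had 10 of 15 tested members lower and 4 higher (median −0.65). PLAU, the urokinase, was at 380.4 and 382 FPKM at 6 h and at 82.5 and 79.9 FPKM at 24 h, under its 0 h values of 202 and 190.0 FPKM. The receptor PLAUR fell by 0.80, PLAT, the tissue plasminogen activator, by 0.84 and THBD by 0.91, while TFPI2, a protease inhibitor, rose by 0.79. Matrix metalloproteinases and their inhibitors leaned upward, with 7 of 12 tested members higher and 2 lower (median 0.37). MMP1, the interstitial collagenase, had the largest increase among the called features: 0.0331 and 0.104 FPKM at 0 h, 2.75 and 2.48 FPKM at 6 h and 43.6 and 43.7 FPKM at 24 h, 16.7-fold above 6 h (log2 3.63, SE 0.082, adjusted p = 9.55e-07). MMP13, another collagenase, had the opposite course, with 11.4 and 11.6 FPKM at 6 h and 3.26 and 3.04 FPKM at 24 h. MMP14, the membrane-bound metalloproteinase, rose by 0.90, TIMP1 by 0.67 and TIMP2 by 0.33, and TIMP3 fell by 1.52, from 25.4 and 25.1 FPKM to 8.08 and 8.21 FPKM.

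Of 34 tested collagens and matrix proteins 18 fell and 7 rose (median −0.22). COL4A1 and COL4A2, the basement membrane collagens, fell by 1.93 and 1.08, and THBS1 by 1.26. FN1, fibronectin, rose from 77.9 and 79.2 FPKM to 125 and 129 FPKM, and LAMB1, a laminin chain, from 7.59 and 7.93 FPKM to 19.9 and 20.1 FPKM. YAP and TEAD targets had 11 of 19 tested members lower and 3 higher (5 on TPM), with ANKRD1 at 276 and 281 FPKM at 6 h and 98.1 and 97.2 FPKM at 24 h. Actin and SRF targets had 14 of 32 lower and 5 higher (10 on TPM), with a median of −0.04 that became 0.08 on TPM. In the TGF-beta superfamily 11 of 33 fell (33.3%) and 7 rose (21.2%), against 25.5% and 20.1% over all tested features. On TPM 6 fell. TGFB2 fell by 1.21, whereas BMP4 rose by 1.12, the receptor TGFBR2 by 0.84 and LTBP1, which binds latent TGF-beta, by 1.31. SDC4, a heparan sulfate proteoglycan, fell by 1.99. Of the 11 tested markers of the line 6 fell and 2 rose: CAV1 fell by 2.06, AXL by 1.14, CD44 by 0.91, ZEB2 by 0.68, ZEB1 by 0.63 and VIM by 0.55, while FN1 rose by 0.68 and CDH11 by 0.64. The summed level of all 13 markers, most of it VIM (2354 and 2358 FPKM at 6 h, 1614 and 1597 FPKM at 24 h), went from between 3051 and 3054 FPKM at 6 h to between 1985 and 1993 FPKM at 24 h, and its part in the other results was not tested.

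Sterol synthesis had the largest share of rising members among lists with more than 1 tested member. Of 25 tested genes of cholesterol synthesis 23 rose and 0 fell (limma, 0 at an unadjusted p under 0.05), with a median of 0.69; the medians against 0 h were 0.12 at 6 h and 0.82 at 24 h. MSMO1, a sterol demethylating oxidase, was at 13.8 and 17.6 FPKM at 0 h, at 15.6 and 15 FPKM at 6 h and at 38.5 and 40.5 FPKM at 24 h. MVK, mevalonate kinase, went from 14.7 and 13.6 FPKM to 34.1 and 33.2 FPKM (log2 1.19, SE 0.069, adjusted p = 5.56e-05). INSIG1, which holds the sterol sensor in the endoplasmic reticulum, rose by 1.12, FDFT1, squalene synthase, by 1.03 and HMGCS1, an early enzyme of the pathway, by 0.92. STARD4 (−0.11) and SREBF1 (0.08) did not pass the test. The sterol response site was in 11.1% of the cholesterol promoters (2 of 18), against 0.958% of tested and 1.26% of all promoters. Of 19 tested genes of fatty acid synthesis 11 rose and 2 fell (1 fell on TPM, 7 rose without WT 6 h replicate 1 or without WT 24 h replicate 1). ACSS2, which makes acetyl-CoA from acetate, rose by 1.38, LPIN1 by 1.06, SCD, the stearoyl desaturase, by 0.66 and FASN by 0.38, while ACSL3 fell by 0.61.

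Interferon-stimulated genes had dipped at 6 h and rose afterwards. Of 36 tested members (46 listed) 25 rose and 2 fell (1 fell on TPM), with a median of 0.53; against 0 h the medians were −0.25 at 6 h and 0.31 at 24 h. ISG20, an antiviral exonuclease, was at 9.73 and 8.95 FPKM at 0 h, at 9.55 and 8.16 FPKM at 6 h and at 28.7 and 27.3 FPKM at 24 h. IFI44 went from 12.4 and 12.4 FPKM to 6.47 and 5.59 FPKM and then to 18.6 and 19.2 FPKM. IFIT1, which binds foreign RNA, went from 8.70 and 9.80 FPKM to 2.47 and 2.83 FPKM and then to 5.46 and 5.96 FPKM, and so rose without regaining its 0 h level. USP18, which limits interferon signalling, rose by 1.18, MX1 by 1.07, PARP9 by 1.30, and the factors IRF9 and IRF7 by 0.86 and 0.76. IRF1, which is also a target of NF-kB, fell by 0.76, from 11 and 11.2 FPKM to 6.46 and 5.90 FPKM. Many members were low: with a mean of at least 5 FPKM 15 rose. In MHC class I presentation 5 of 17 tested genes rose and 1 fell, with HLA-C (0.51) and HLA-B (0.34) higher and B2M (0.14) not called; HLA genes share reads with each other, so their values are uncertain.

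Hypoxia-responsive and lysosomal genes rose in part. Of 34 tested genes of glycolysis and the hypoxia response 17 rose and 2 fell (23 and 0 on TPM), with a median of 0.18. ALDOC, an aldolase, was flat until 6 h (23.6 and 25.1 FPKM at 0 h, 22.9 and 23.9 FPKM at 6 h) and reached 94.1 and 97.5 FPKM at 24 h. NDRG1 rose by 1.72, EGLN3, an oxygen-sensing hydroxylase, by 1.44, BNIP3 by 1.24, DDIT4 by 1.17 and ENO2 by 1.15. CA9 rose by 1.49 from under 1 FPKM (2.83 with a pseudocount of 0.1), PGK1 by 0.36, and HK2 fell by 0.28, a call that was lost on TPM (−0.17). VEGFA, the vascular growth factor and a target of the same response, was at 13.7 and 14.4 FPKM at 0 h, at 21.8 and 20 FPKM at 6 h and at 39.8 and 40.4 FPKM at 24 h; of 19 tested angiogenic factors and receptors 9 rose and 4 fell. Among 48 tested lysosomal genes 20 rose and 2 fell (33 and 1 on TPM, 13 rose without WT 6 h replicate 1 or without WT 24 h replicate 1). NEU1, a sialidase, rose by 1.2, CTSB, cathepsin B, by 0.73 and NPC1, the cholesterol exporter of the lysosome, by 0.51, while SQSTM1, an autophagy receptor, fell by 0.43.

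**Figure D4:**
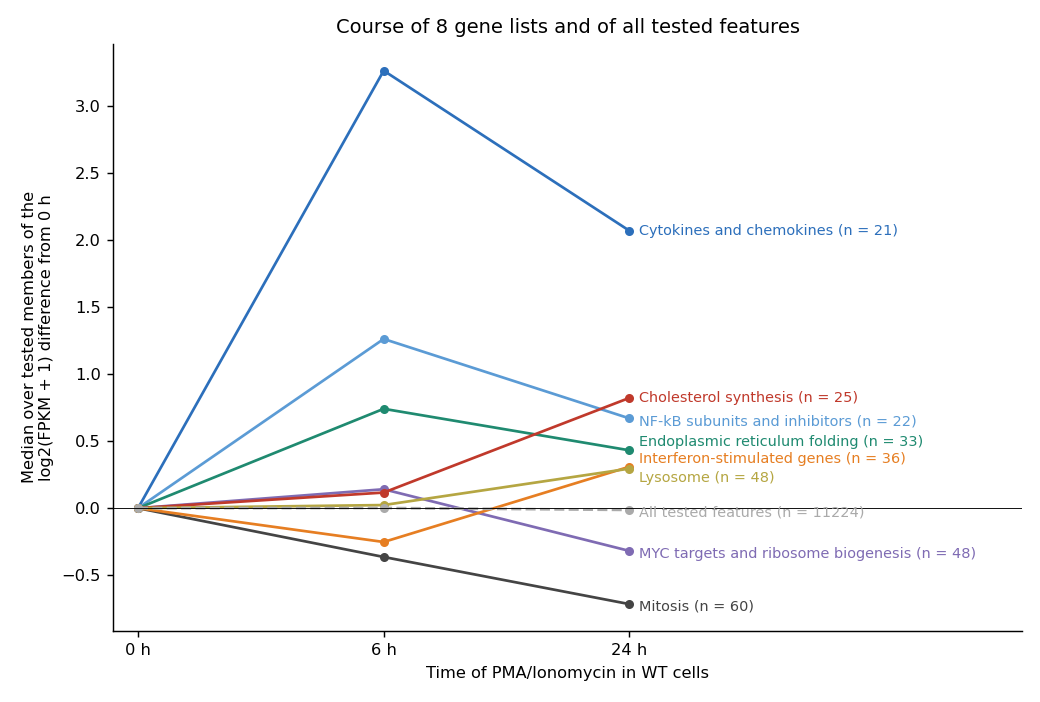
Median over the tested members of 8 gene lists of the log2(FPKM + 1) difference from 0 h, at 0 h, 6 h and 24 h in WT cells, with all 11224 tested features as the gray dashed line; n is the number of tested members. Cytokines, NF-kB and endoplasmic reticulum folding rise to 6 h and then fall, cholesterol synthesis, lysosome and interferon-stimulated genes rise after 6 h, and mitosis falls throughout.

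ATF4 targets, many of them genes of amino acid metabolism, moved in both directions. Of 25 tested 12 rose and 9 fell, with a median of 0.19 that was 0.0071 with a mean of at least 5 FPKM. ASNS, asparagine synthetase, rose by 0.93, CHAC1 by 1.0 and AARS by 0.63, while PPP1R15A, which restarts translation after stress, fell by 1.24 and SLC7A5, a leucine transporter, by 1.03. PTGS2, the inducible cyclooxygenase COX-2, was at 0.476 and 0.608 FPKM at 0 h, at 36.7 and 37.3 FPKM at 6 h and at 89.6 and 95 FPKM at 24 h. PLA2G4A, which releases its substrate, rose by 1.33, and 5 of 9 tested genes of prostaglandin synthesis rose and 1 fell (0 fell on TPM). PTGS2 and IL1B are thus early genes that kept building while most of the early cytokines decayed. Among 56 tested genes of oxidative phosphorylation 50 were not called in either direction (3 rose and 3 fell, 12 and 2 on TPM, where the median of −0.03 turned to 0.09).

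Other genes with large increases came mostly from no list. PAEP, the lipocalin glycodelin, went from 4.22 and 4.74 FPKM to 46.7 and 40.4 FPKM, 9.71-fold higher. STC1, a secreted glycoprotein counted among the angiogenic factors, went from 13.1 and 13.2 FPKM to 84.6 and 87.7 FPKM, after 1.65 and 1.71 FPKM at 0 h. LCP1, the actin bundling protein L-plastin, was at 4.70 and 3.91 FPKM at 0 h, 4.22 and 4.27 FPKM at 6 h and 23.7 and 25.3 FPKM at 24 h. These 3 differ in their start: STC1 had already risen by 6 h, whereas LCP1 had not moved. The remaining features of the 15 largest increases were C21orf7 (2.16), CLDN7, a tight junction claudin (1.93), LY96, the cofactor MD-2 of a toll-like receptor (1.79), TMEM158 (1.79), AKR1C1 (1.79), ROBO4 (1.78), PBXIP1 (1.76) and ABHD4 (1.73), besides the genes given above. AKR1C1 shares reads with its near-identical relatives and is uncertain. LY96 replicates spread most, at 4.68 and 8.32 FPKM at 24 h.

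Commonly used reference genes gave a measure of the scale. GAPDH (−0.07), TBP (−0.15) and ACTB (0.15) did not pass the test, although ACTB was called higher on TPM (0.27) and GAPDH turned to 0.05 there. HPRT1, against which transcripts in the study were normalized, was at 52.7 and 57.0 FPKM at 6 h and at 41.9 and 47.6 FPKM at 24 h, a decrease of 0.29 (adjusted p = 0.0274) that was not called on TPM (−0.18) or without WT 24 h replicate 1 (−0.20).

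The change between 6 h and 24 h was set beside that in ΔCRE cells, whose libraries are not part of the WT comparison. In ΔCRE cells 2221 features rose (19.8%) and 2681 fell (23.9%). Of the features that rose in WT cells 1767 also rose in ΔCRE cells, 78.3% of the WT calls and 79.6% of the ΔCRE calls. Of those that fell 2210 were shared, 77.2% and 82.4%. Calls in opposite directions numbered 5. Without ΔCRE 24 h replicate 1 the 3977 shared calls became 2521. Medians in ΔCRE cells were −0.98 for cytokines, −0.80 for NF-kB, −0.47 for mitosis, −0.52 for ribosome biogenesis, −0.42 for folding, 0.58 for cholesterol synthesis and 0.58 for interferon-stimulated genes. Other lists stood further apart: ATF4 targets had a median of 0.19 in WT and −0.11 in ΔCRE cells (9 higher and 12 lower there), the plasminogen system −0.65 and −0.37, genes named in the study −0.29 and −0.03, angiogenic factors 0.12 and 0.35, markers of the line −0.55 and −0.39 and the ETS family −0.26 and −0.10. These differences between lists were not tested.

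A test of the difference itself called 13 of 11224 features (0.116%, and 836 at an unadjusted p under 0.05). The level filter rested on WT libraries, so features present only in ΔCRE cells could not be called. SNORA3 and SNORA80, among the 13, passed the filter only through the WT libraries of 6 h. ETS1, whose promoter is altered in ΔCRE cells, was at 62.8 and 62.2 FPKM at 6 h and at 29.3 and 30.7 FPKM at 24 h there, so that its decrease was 0.84 (log2) smaller than in WT cells (SE 0.087, adjusted p = 0.0218). At 24 h the ΔCRE values lay below the WT values of 36.2 and 39.7 FPKM, by less than at 6 h. On the log2 scale IL1B rose more in ΔCRE cells, from 52.8 and 47.1 FPKM to 220.2 and 206 FPKM, from a lower start. Its ΔCRE values at 24 h stayed below the WT values of 326 and 330.5 FPKM. G0S2, an inhibitor of lipolysis, stood at 354 and 345 FPKM at 6 h and 349 and 342 FPKM at 24 h in WT cells, and went from 168 and 160.2 FPKM to 324 and 289 FPKM in ΔCRE cells. In IL1B, ETS1 and G0S2 the ΔCRE values at 6 h lay below the WT values. The 6 h values are part of the tested difference, so this is no separate result. Some other called genes had the same order at 6 h and some did not. INHBA, a subunit of activins, fell from 16.6 and 16.3 FPKM to 10.6 and 10.3 FPKM in WT cells and was at 22.9 and 23.0 FPKM, then 28.3 and 25.9 FPKM, in ΔCRE cells. These calls depend on the fit: without ΔCRE 6 h replicate 1 the test called 2 features, and over 17 alternatives ETS1 was called in 7, IL1B in 14, G0S2 in 8 and INHBA in 7.

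**Figure D5:**
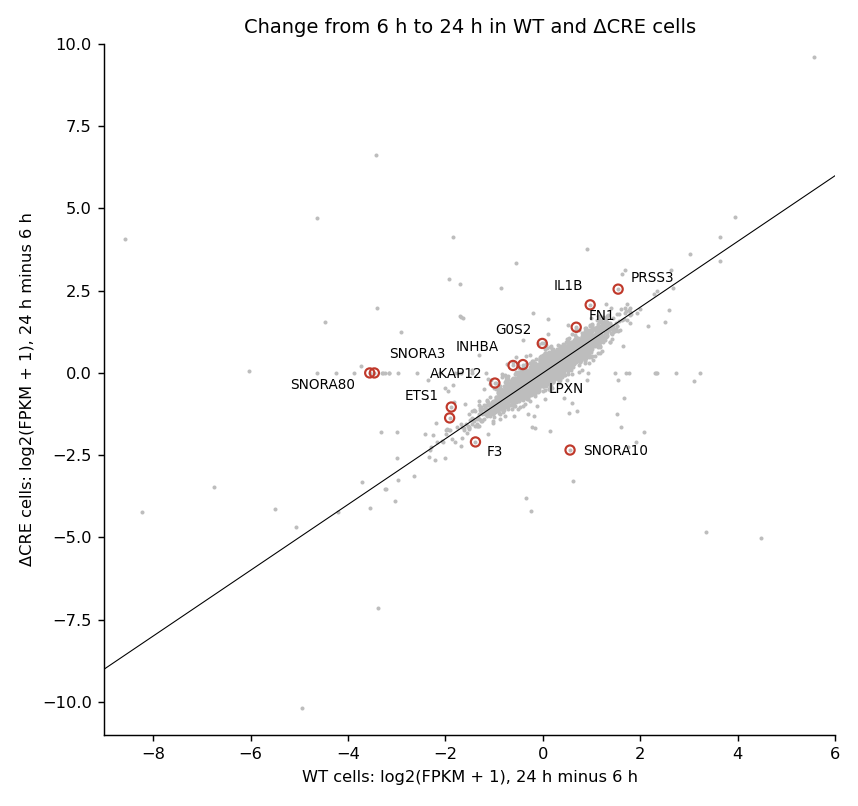
Log2(FPKM + 1) difference between 24 h and 6 h in WT cells (horizontal) and in ΔCRE cells (vertical) for 11224 tested features, with the line of equal change; red circles mark the 13 features whose change differed between the genotypes at an adjusted p under 0.05. Most points follow the line, ETS1 and IL1B lie above it and F3 below it.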

How the data were processed

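RNA-seq libraries were made with a stranded poly(A) protocol from 12 MDA-MB-231 cultures. Per the methods and the labels, the authors mapped reads to hg19 with TopHat 2.0.12 and estimated expression with Cufflinks 2.2.1. The gene annotation is not given in the sources used here. The deposited table holds FPKM, with no counts, so depth is unknown and no count model was used. Cuffdiff comparisons of the authors were not used. The names of 2 ΔCRE columns (replicate 2 at 0 h and at 6 h) carry a digit where the sample titles have the letter h, and were read as those samples. FPKM was taken as log2(FPKM + 1) for the 6 WT libraries, features with a mean under 1 FPKM over the 4 libraries of 6 h and 24 h were left out, and limma 3.58.1 in R 4.3.3 (moderated test with trend, Benjamini-Hochberg adjustment) compared 24 h with 6 h. All adjusted p-values come from limma. A fold change on this scale understates that of low genes. The difference between genotypes was an interaction term over the 8 libraries of 6 h and 24 h, and ΔCRE cells were also fitted alone. P-values measure the spread between 2 replicates a group. On simulated data with 200 of 11224 features changed by 1 (log2) the WT fit recovered 99%, and 7.04% of its calls were false. The simulated noise was independent between values, so deviations shared within a library were not covered. Most called changes in the data were smaller than 1 (log2). In this comparison 193 tested features name several genes, and 94 were listed at 0 in some WT library of 6 h or 24 h.

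Named genes were the 15 largest increases and 15 largest decreases among called features whose libraries did not overlap, which had at least 5 FPKM in the higher group and named 1 gene that is no small RNA, the called members with the largest changes (up to 8 a list), genes named in the study, the reference genes HPRT1, GAPDH, ACTB and TBP, and the smallest interaction p-values. The genes, lists and alternatives were chosen with earlier results of these data known. Alternatives were another pseudocount, other filters, TPM or quantile scaling, no trend, other sets of libraries, a replicate block, a fold minimum and leaving out each library. Some results, among them 1 of the 13 interaction calls, are not reported here.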

Additional observations from a re-analysis of the deposited data

Results flagged for a closer look

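A difference in the change from 6 h to 24 h between ΔCRE and WT cells, tested by an interaction term in limma, was called for 13 features. Each value below is the log2(FPKM + 1) change in ΔCRE cells minus that in WT cells, so a positive value means that ΔCRE cells rose more or fell less. IL1B (1.10, adjusted p = 0.0117) was called in 14 of 17 alternative fits and G0S2 (0.91, adjusted p = 0.0218) in 8. ETS1 (0.84), INHBA (0.84) and PRSS3 (1.0) were each called in 7.

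AKAP12 (0.68) and FN1 (0.71) were each called in 6 of the 17 fits, and LPXN (0.66) and F3 (−0.71) in 4. F3, tissue factor, was the coding gene with a negative value. It fell from 103 and 101 FPKM to 38.6 and 38.4 FPKM in WT cells and from 187 and 205 FPKM to 44.7 and 45.3 FPKM in ΔCRE cells. FN1 rose from 76.2 and 68.2 FPKM to 190.5 and 191 FPKM in ΔCRE cells, and PRSS3, a trypsinogen, rose from 4.12 and 4.35 FPKM to 32.1 and 27.3 FPKM. AKAP12, a scaffold of protein kinase A, fell from 28.4 and 26.9 FPKM to 22.0 and 22.3 FPKM in ΔCRE cells, against 27.2 and 26.6 FPKM to 12.8 and 13.4 FPKM in WT cells. LPXN, leupaxin, fell in WT cells from 53.1 and 51.4 FPKM to 38.2 and 40.0 FPKM, while the ΔCRE values were 37.8 and 38.7 FPKM, then 44.3 and 47.4 FPKM.

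SNORA3, SNORA80 and SNORA10 are small nucleolar RNA entries, which a poly(A) protocol captures poorly. SNORA3 (3.46) and SNORA80 (3.55) were listed at 0 in all ΔCRE libraries of 6 h and 24 h and in both WT libraries of 24 h. Both were above 0 only in the WT libraries of 6 h among those compared here. SNORA10 (−2.90) was at 16.8 and 26.7 FPKM, then 25.8 and 38.9 FPKM, in WT cells, and at 38.6 and 52.8 FPKM, then 8.67 and 7.55 FPKM, in ΔCRE cells.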

How the results depend on the processing

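No alternative called a feature in the direction opposite to its call in the report. Against 2257 higher and 2863 lower features, a mean of at least 5 FPKM gave 1465 higher, TPM gave 1724 lower, the fold minimum gave 184 and 138, and all 12 libraries gave 328 and 346. Leaving out 1 WT library gave between 1383 and 2429 higher and between 1669 and 3110 lower. The 13 interaction calls became 32 with a pseudocount of 0.1, 2 without a filter, 22 with a mean of at least 5 FPKM, 1 without trend, 24 with 11 libraries, 0 with 12 libraries and 5 with the fold minimum, and leaving out 1 library gave between 2 and 14. The 3977 calls shared with ΔCRE cells became 246 with the fold minimum, and between 2521 and 3049 without 1 ΔCRE library. The cause of these moves was not tested. STARD4 (−0.11) turned to 0.0043 on TPM and ran from −0.22 to 0.0076 without 1 library (the last without WT 6 h replicate 2), GAPDH turned to 0.046 on TPM, and G0S2 (−0.01) turned to 0.17 after quantile normalization and 0.11 on TPM and ran from −0.031 to 0.0054 without 1 library (positive without WT 6 h replicate 1 or WT 24 h replicate 2); none of the 3 was called. With 12 libraries 11 cholesterol genes and 8 interferon-stimulated genes were higher, and 7 mitosis, 5 DNA replication, 13 ribosome biogenesis and 8 NF-kB genes were lower.

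Same-numbered WT replicates did not deviate together (correlations of −0.034, −0.025 and −0.010), and the labels name no shared batch, so the numbers were not taken to pair the WT samples. Among the groups of the interaction the correlations were −0.010 for WT 6 h and 24 h, 0.142 for ΔCRE 6 h and 24 h, 0.126 for both genotypes at 6 h and 0.137 at 24 h: 3 of the 4 exceeded 0.1 and 1 did not, so the numbers were not taken as pairs there either, and a shared deviation of part of these samples cannot be set aside. A replicate block gave 2655 higher, 3428 lower and 25 interaction calls, and 4420 shared calls.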

Other observations

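Some gene families lay outside the comparisons above, and over all tested features 25.5% fell and 20.1% rose. Epithelial keratins and claudins went in different directions. KRT8 and KRT18, the paired keratins of simple epithelia, fell by 0.57 and 0.47 (log2), while KRT19 rose by 1.08, from 50.3 and 45.6 FPKM to 106 and 98.3 FPKM, and CLDN4, a tight junction claudin, rose by 0.95, from 16.6 and 17.2 FPKM to 33.4 and 33.5 FPKM. The summed level of the 15 luminal and epithelial markers went from between 1005 and 1027 FPKM at 6 h to between 787 and 839 FPKM at 24 h. CD68, a lysosomal glycoprotein often used as a macrophage marker, rose from 34.2 and 32.9 FPKM to 91.7 and 86.7 FPKM, and the other 10 leukocyte markers stayed under the filter.

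Of 18 tested histone entries 8 fell and 0 rose (limma; 0 rose at an unadjusted p under 0.05), with a median of −0.55. HIST1H2BJ fell by 1.21 and HIST1H4C by 0.84, a call that was lost without WT 6 h replicate 1 or 2 (−0.84 in each). Most replication-dependent histone transcripts lack a poly(A) tail, and their level in poly(A) libraries is not that in the cell. Of 305 tested zinc finger genes 61 fell and 36 rose (28 and 51 on TPM), with a median of −0.06 that turned to 0.02 on TPM, and of 37 proteasome subunits 4 rose and 0 fell (2 fell at an unadjusted p under 0.05; 14 rose on TPM and 19 after quantile normalization). Of 121 tested features picked by the start of a small RNA name 14 fell and 2 rose, smaller shares than over all tested features. The pick also took in microRNA host genes, and MIR210HG was among those that rose. Among these 14, 12 were listed at 0 in both WT libraries of 24 h. VTRNA1-3 was at 547.5 and 263.7 FPKM at 6 h in WT cells and listed at 0 in the WT libraries of 0 h and 24 h, while in ΔCRE cells it was listed at 0 in both libraries of 6 h and was at 284.3 and 0 FPKM at 24 h.

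Smaller groups gave no single direction, where over all tested features 25.5% fell and 20.1% rose. Among 9 tested ADAM and ADAMTS proteases 5 fell and 1 rose (3 and 2 on TPM): ADAM8 rose by 1.02, from 13.8 and 12.2 FPKM to 28.3 and 26.3 FPKM, and ADAMTS9 fell by 1.13. Of 12 integrins 3 fell and 3 rose (5 rose on TPM), and ITGB4, a hemidesmosome subunit, fell by 0.72. Of 27 NRF2 targets 7 fell (25.9%) and 5 rose (18.5%), near the shares over all tested features, and on TPM 4 fell and 8 rose. Among 15 TNF receptor family members 7 fell and 3 rose (5 rose on TPM), and of 20 cytosolic tRNA synthetases 8 rose and 3 fell (1 fell on TPM). BCL2 family members numbered 15, of which 6 fell and 2 rose, with a median of −0.10. On TPM 4 of them fell and 2 rose, and the median turned to 0.01.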
